A study of Mus musculus with 8 samples.

Results

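The 43 genes described here encode the machinery that licenses replication origins and copies DNA in S phase, from the origin recognition complex and the MCM helicase to the polymerases, the sliding clamp and the enzymes that make deoxynucleotides. They were listed by gene symbol for their known roles, and all 43 were found among the 49315 gene identifiers of the deposited count tables. All are protein-coding genes, and all 43 had counts in every library and passed the filter on low counts, so that none was left out of the tests. RNA came from the esophagus of wild-type mice that had sodium dodecyl sulfate (SDS), an anionic household detergent, at 0.5% in the drinking water up to day 14 (3 libraries), or that drank water without it (5 libraries, also at day 14). The labels speak of homogenates of the whole organ in 1 place and of frozen cell pellets in another. Both keratins of squamous epithelium and skeletal muscle transcripts were abundant in every library, with Krt5 at 1313 CPM (read counts per library size in the usual CPM unit, after TMM scaling) or more, and 7 muscle markers summed to 10225 CPM or more. No source used here gives strain, sex, age or whether each library stands for 1 animal. The p-values therefore speak of the spread among these libraries alone, which may be technical.

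A cell copies its genome once per division. In G1, ORC, Cdc6 and Cdt1 load the MCM2-7 helicase onto origins, and at the start of S phase the kinase Cdc7 with Dbf4 and the factors Cdc45, Mcm10 and GINS turn it into a moving fork. Most of these genes are switched on together by E2F transcription factors once cyclin E and its kinase have inactivated the retinoblastoma protein. In stratified squamous epithelium such as that of the esophagus, dividing cells lie in the basal layers, which make the keratin Krt5, while the cells above them have left the cycle.

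Promoters of the group often held the E2F recognition letters, a feature that the choice of genes did not use. In RefSeq windows on GRCm38.p6, each running from 250 bases before to 50 bases after an annotated start, 35 of the 43 genes had an entry. Both strands were searched for TTTCCCGC, TTTCGCGC, TTTGCCGC and TTTGGCGC, and overlapping matches were each counted. Of the 35 genes, 15 (42.9%) held at least 1 match, against 4.20% of the 12255 tested genes with an entry and 2.61% of all 27025 genes of the table. The pentamer CCAAT, bound by the factor NF-Y, was in windows of 57.1% of the 35 genes against 41.9% of tested genes and 41.1% of all genes of the table. The hexamers TTTGAA and TTCGAA, the core of the CHR element of late cell cycle genes, were in 22.9% against 16.8% of tested genes. Their share among all genes of the table was 21.7%, close to that of the 35 genes. A match is a run of letters and not a measured binding site, and no match says only that these letters are not in the window.

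The following stretches show these letters where they lie close to the start of transcription, each covering the 170 bases before the annotated start, 5′ to 3′ on the strand of the gene, on GRCm38.p6. Capitals mark E2F matches on either strand. Orc1 (chr4:108579284-108579453, plus strand) and Gins3 (chr8:95633389-95633558, plus strand) have a match 27 and 41 bases before the start. Mcm5 (chr8:75109339-75109508, plus strand) and Mcm6 (chr1:128359706-128359875, minus strand) were added after the matches were seen, because each holds overlapping matches on opposite strands. Tyms (chr5:30073626-30073795, minus strand), which passed the test below and has no match, was added after its values were seen.
Orc1: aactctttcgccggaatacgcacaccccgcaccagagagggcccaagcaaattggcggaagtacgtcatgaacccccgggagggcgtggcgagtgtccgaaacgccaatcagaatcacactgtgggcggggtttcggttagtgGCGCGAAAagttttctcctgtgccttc
Gins3: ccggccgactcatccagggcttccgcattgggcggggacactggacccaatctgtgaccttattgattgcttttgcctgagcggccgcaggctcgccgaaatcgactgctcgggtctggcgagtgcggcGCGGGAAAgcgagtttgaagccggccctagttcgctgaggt
Mcm5: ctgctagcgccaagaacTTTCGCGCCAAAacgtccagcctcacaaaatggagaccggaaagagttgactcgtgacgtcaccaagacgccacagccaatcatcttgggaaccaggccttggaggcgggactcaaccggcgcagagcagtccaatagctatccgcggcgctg
Mcm6: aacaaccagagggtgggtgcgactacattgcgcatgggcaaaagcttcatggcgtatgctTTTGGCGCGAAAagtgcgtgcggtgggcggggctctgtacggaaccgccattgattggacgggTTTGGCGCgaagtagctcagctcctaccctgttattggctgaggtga
Tyms: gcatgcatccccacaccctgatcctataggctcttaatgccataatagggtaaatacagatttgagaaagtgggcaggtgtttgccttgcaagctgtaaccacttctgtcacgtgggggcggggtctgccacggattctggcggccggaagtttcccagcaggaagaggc

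The comparison of SDS with control addresses what the swallowed detergent does to the esophagus. As a group, replication genes lay higher in all 3 SDS libraries than in the controls, by a small amount that was similar in the 3 libraries. Single genes differed in size and, for Mcm8 and Rpa1, in direction. Together the 43 genes summed to 741, 751 and 720 CPM in SDS libraries 1, 2 and 3. In control libraries 1 to 5 the sum was 494, 605, 549, 456 and 541 CPM. The SDS mean was 737 ± 15.8 CPM (SD, n = 3) and the control mean 529 ± 56.7 CPM (SD, n = 5), and the groups did not overlap. In bulk RNA a larger number of cycling cells and more of this RNA per cell cannot be told apart.

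Gene by gene, 41 of 43 log2 fold changes were above 0. Their median was 0.56 and their range -0.12 to 1.31, while the median of all 17179 tested genes was -0.005. In 29 of the 43 genes (67.4%) every SDS library lay above every control, which held for 6.50% of all tested genes. In 0 of the 43 every SDS library lay below, which held for 1183 of the 17179 tested genes. Single genes seldom passed the test over all genes. With edgeR's quasi-likelihood test and Benjamini-Hochberg adjustment, 1 of 43 rose (Tyms), 0 fell and 42 did not pass. Of all tested genes 107 (0.623%) were called higher and 73 lower. At an unadjusted p under 0.05 in edgeR, 31 of the 43 were higher and 0 lower, against 1715 (9.98%) higher and 1467 lower among all tested genes. DESeq2 called 22 of the 43 higher and 0 lower, beside 859 (5.00%) higher and 751 lower among all genes. Of the 43, limma-voom called Tyms alone. The edgeR count was 11 without SDS library 3, when 4.98% of all genes were called higher. It was 1 without control library 4 (Mcm7, in place of Tyms) and 0 without control library 1, 2, 3 or 5 or SDS library 1 or 2. The share of all genes called is not given for limma-voom or for these last fits, so their counts stand without it. The median of the 43 log2 fold changes stayed between 0.50 and 0.63 in all 15 alternatives tried.

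**Figure D1:**
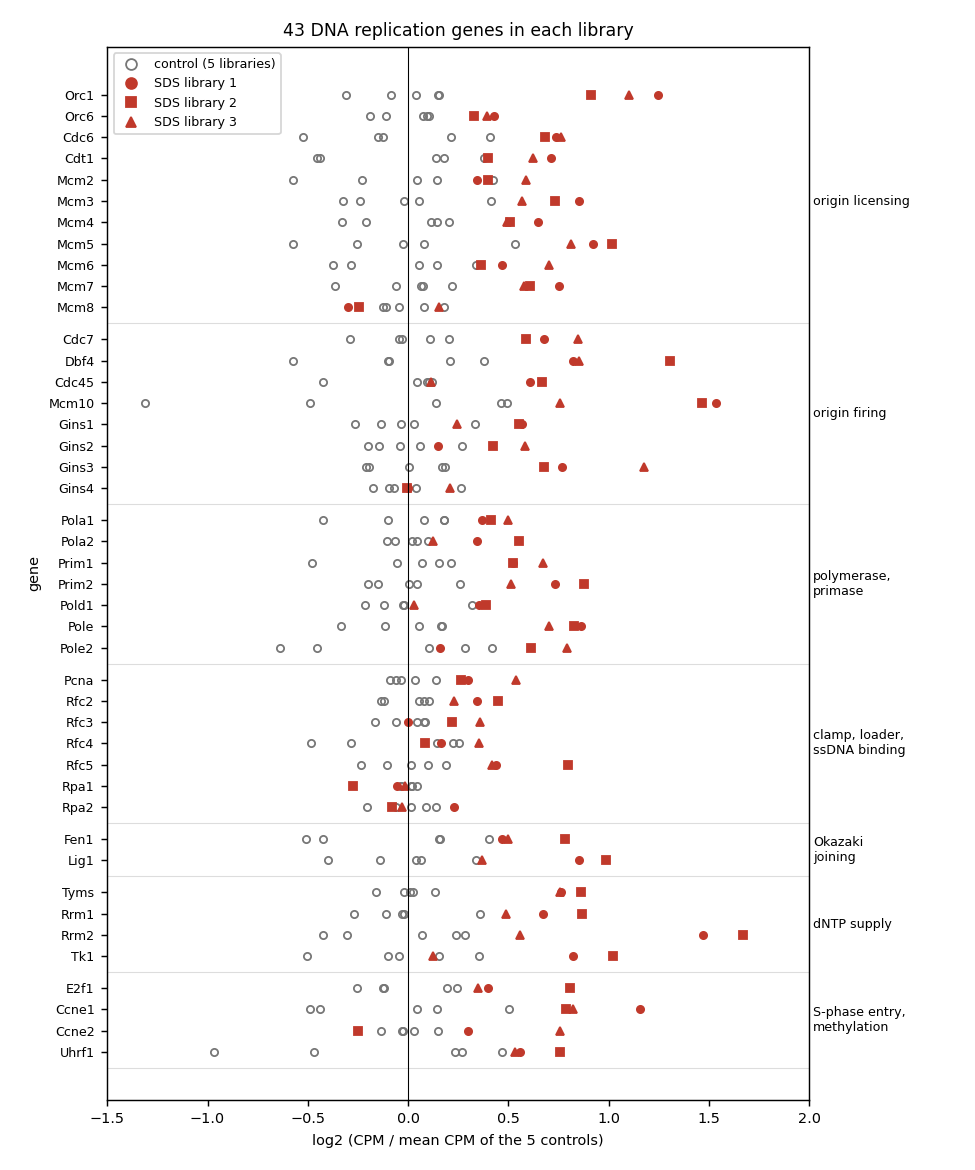
Each row is 1 of the 43 replication genes, grouped by role, and each point is a library, placed on the x axis at the log2 of its CPM over the mean CPM of the 5 controls. Open circles are controls and filled red symbols the 3 SDS libraries. All 3 SDS symbols lie to the right of every control in 29 rows, while in Mcm8, Rpa1, Rpa2 and Gins4 they overlap the controls around 0.

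Over the 43 genes together, the 3 SDS libraries stood at similar levels. SDS libraries 1, 2 and 3 lay above all 5 controls in 35, 36 and 35 of the 43 genes, where all tested genes gave 19.6%, 24.5% and 26.6%. The mean level of the 43 genes exceeded that of the controls by 0.58, 0.60 and 0.53 on the log2 scale in SDS libraries 1, 2 and 3, and the controls had an SD of 0.18. Single roles were not all so even. In the same libraries deoxynucleotide supply stood at 0.94, 1.12 and 0.50 and Okazaki fragment joining at 0.68, 0.91 and 0.46. Origin licensing stood at 0.63, 0.53 and 0.63. Controls 2 and 4 marked the ends of the control range: control 2 was the highest control in 23 of the 43 genes and control 4 the lowest in 27. Control 4 also stood apart in its tissue markers. Its adipocyte markers summed to 1460 CPM (4.43 to 304 CPM in the other controls), its smooth muscle markers to 4143 CPM (474 to 1683 CPM) and its suprabasal keratinocyte markers to 41057 CPM (at least 74420 CPM). The part of this mix in the levels of the 43 genes was not tested, and without control 4 the median of their log2 fold changes was 0.50. SDS library 3 was the lowest SDS library in 20 of the 43 genes, close to its share of 43.6% among all tested genes.

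Most origin licensing genes lay higher in SDS, by amounts that differed between genes, and none passed over all genes. Of 11 licensing genes, 10 had a positive log2 fold change and 9 had SDS values above every control, with a median of 0.58. Orc1, the ATPase subunit that governs ORC loading in each cycle, measured 0.921, 0.722, 0.996, 0.844 and 0.991 CPM in controls 1 to 5 and 2.12, 1.69 and 1.92 CPM in SDS libraries 1 to 3. All 3 SDS values lay well above the highest control. Its log2 fold change of 1.08 ± 0.21 (SE; edgeR adjusted p = 0.0536) rests on 268 counts over the 8 libraries.

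Mcm7, a helicase subunit, measured 26.3, 31.9, 28.9, 21.3 and 28.7 CPM in controls 1 to 5 and 46.3, 41.9 and 40.9 CPM in the SDS libraries (log2 0.65 ± 0.13 SE, edgeR adjusted p = 0.0543). The groups did not overlap, and Mcm7 passed without SDS library 3 (edgeR adjusted p = 0.0343) and without control library 4 (edgeR adjusted p = 0.0490). The other MCM2-7 subunits had log2 fold changes of 0.45 (Mcm2), 0.72 (Mcm3), 0.55 (Mcm4), 0.92 (Mcm5) and 0.52 (Mcm6). Mcm5 reached 29.6, 31.6 and 27.4 CPM in SDS libraries against 10.5 to 22.6 CPM in controls, and Mcm2 was the only one of the 6 whose groups overlapped. Per kilobase of exon, the levels of the 6 subunits in controls ran from 2.95 CPM per kb (Mcm2) to 6.20 CPM per kb (Mcm7), a 2.10-fold span, and in SDS the span was 2.42-fold. Cdc6 and Cdt1, the loading factors, had log2 fold changes of 0.73 ± 0.22 and 0.58 ± 0.22 (SE). Orc6 had 0.38 ± 0.12.

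Mcm8 stood apart in direction. It encodes a helicase that works with Mcm9 in recombination repair and is not part of the MCM2-7 ring. Mcm8 measured 3.58, 4.38, 3.54, 3.75 and 4.08 CPM in controls and 3.14, 3.26 and 4.29 CPM in SDS libraries, so that the groups overlapped (log2 -0.12 ± 0.18 SE, edgeR adjusted p = 0.788).

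Among the 8 genes of origin firing all log2 fold changes were positive, 4 had SDS values above every control, and none passed over all genes. Dbf4, the activating subunit of the Cdc7 kinase, measured 5.66, 6.98, 7.86, 4.05 and 5.64 CPM in controls and 10.7, 14.9 and 10.9 CPM in SDS libraries. Each SDS value was above the highest control (log2 1.01 ± 0.23 SE, edgeR adjusted p = 0.0685). Cdc7 itself averaged 3.50 ± 0.444 CPM (SD, n = 5) in controls, and in SDS libraries 5.72 ± 0.523 CPM (SD, n = 3). Mcm10, a scaffold of the fork, had a log2 fold change of 1.30 ± 0.40 at a control level of 1.68 CPM, and Cdc45 one of 0.48 ± 0.20 with SDS library 3 inside the control range.

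The 4 subunits of GINS, which form 1 complex in equal numbers, did not carry equal RNA. Gins3 measured 2.35, 3.03, 3.06, 2.33 and 2.71 CPM in controls and 4.59, 4.32 and 6.09 CPM in SDS libraries (log2 0.89 ± 0.20 SE, edgeR adjusted p = 0.0675). SDS library 3 held the highest value. Gins4 measured 15.9 to 21.6 CPM in controls and 17.9 to 20.8 CPM in SDS libraries (log2 0.07 ± 0.13). Per kilobase, the control level of Gins4 was 13.3 ± 1.65 CPM per kb (SD, n = 5), 13.6 times that of Gins2, the lowest of the 4, at 0.984 CPM per kb (4.47 times without a correction for length). Gins1 and Gins2 had log2 fold changes of 0.46 ± 0.19 and 0.40 ± 0.18. Of the 4097 exon bases of Gins2, 2758 are shared with Gse1 on the other strand. The strand setting of the counting is not known, so the level of Gins2 and its ratio to Gins4 are uncertain.

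Polymerase and primase genes had positive log2 fold changes in 7 of 7 and SDS values above every control in 5, and none passed over all genes. Pole, the catalytic subunit of the leading strand polymerase, measured 4.64, 5.63, 5.20, 3.98 and 5.64 CPM in controls and 9.11, 8.92 and 8.17 CPM in SDS libraries. Its log2 fold change was 0.80 ± 0.16 (SE; edgeR adjusted p = 0.0547), and it passed without SDS library 3 (edgeR adjusted p = 0.0320). Prim2, the large primase subunit, measured 4.94, 5.72, 4.17, 4.32 and 4.80 CPM in controls and 7.97, 8.81 and 6.84 CPM in SDS libraries (log2 0.72 ± 0.17). For both genes the lowest SDS value lay above the highest control. Prim1, the catalytic primase subunit, had a log2 fold change of 0.58, Pole2 0.55, Pola1 0.43, Pola2 0.35 and Pold1, the lagging strand polymerase, 0.27.

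The clamp, its loader and the single-strand binding proteins differed least, with a median log2 fold change of 0.20 over 7 genes, and none passed. Pcna, the sliding clamp and the most abundant of the 43 per length, measured 55.2, 64.8, 60.1, 56.2 and 57.3 CPM in controls and 72.2, 70.4 and 85.4 CPM in SDS libraries. The groups did not overlap (log2 0.37 ± 0.10 SE, edgeR adjusted p = 0.104). Rfc5, a clamp loader subunit, measured 7.74, 8.42, 8.93, 7.09 and 9.49 CPM in controls and 11.3, 14.5 and 11.1 CPM in SDS libraries (log2 0.56 ± 0.15). The loader subunits Rfc2, Rfc3 and Rfc4 had log2 fold changes of 0.34, 0.20 and 0.20.

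Rpa1, the large subunit of the single-strand binding protein RPA, was the other gene with a negative fold change. It measured 61.7, 63.0, 61.9, 59.6 and 59.6 CPM in controls and 58.8, 50.6 and 60.4 CPM in SDS libraries (log2 -0.11 ± 0.09 SE, edgeR adjusted p = 0.557). SDS library 3 lay inside the control range and the other two below it. Its partner Rpa2 had a log2 fold change of 0.05 ± 0.13. RPA also serves DNA repair outside S phase.

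Both genes of Okazaki fragment joining had SDS values above every control without passing the test. Lig1, the replicative DNA ligase, measured 11.7, 16.2, 13.2, 9.72 and 13.4 CPM in controls and 23.2, 25.5 and 16.6 CPM in SDS libraries (log2 0.76 ± 0.19 SE, edgeR adjusted p = 0.0885). SDS library 3 lay only just above control 2. Fen1, the flap endonuclease, measured 2.22, 3.94, 3.32, 2.09 and 3.31 CPM in controls and 4.12, 5.13 and 4.21 CPM in SDS libraries (log2 0.59 ± 0.25).

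Deoxynucleotide supply held the only call. Tyms (ENSMUSG00000025747, mm10 chromosome 5 from 30058202 to 30073617, minus strand), the thymidylate synthase that makes dTMP, measured 5.49, 6.11, 5.61, 5.67 and 4.99 CPM in controls and 9.46, 10.1 and 9.42 CPM in SDS libraries. Values were tight within both groups and far apart between them. It rose 1.74-fold (log2 0.80 ± 0.13 SE), with an edgeR adjusted p of 0.0368, and its log2 fold change stayed between 0.75 and 0.83 over 15 alternatives. The call was lost in 8 of those, with adjusted p of up to 0.170, and among them were the fits without any 1 of the 5 control libraries and without SDS library 1 or 2.

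Rrm2 (ENSMUSG00000020649, mm10 chromosome 12 from 24708241 to 24714146, plus strand), the S-phase subunit of ribonucleotide reductase, had the largest log2 fold change of the 43. It measured 5.18, 7.79, 6.71, 4.76 and 7.54 CPM in controls and 17.7, 20.4 and 9.42 CPM in SDS libraries. All SDS values were above the controls, SDS library 3 by the least. The log2 fold change was 1.31 ± 0.27 (SE; edgeR adjusted p = 0.0576), and without SDS library 3 it was 1.58 and passed (edgeR adjusted p = 0.00728). Rrm1, the partner that is present through the cycle, had a log2 fold change of 0.68 ± 0.15, and Tk1, the thymidine salvage kinase, 0.71 ± 0.24 with SDS library 3 at 14.8 CPM, inside the control range of 9.59 to 17.4 CPM. Per kilobase Rrm1 stood above Rrm2 in controls (2.93 against 2.31 CPM per kb), while the SDS mean of Rrm2 was higher (5.72 against 4.70 CPM per kb). Rrm2 exceeded Rrm1 in SDS libraries 1 and 2 and not in SDS library 3, where Rrm2 had 3.40 and Rrm1 4.11 CPM per kb. The order per kilobase rests on the exon lengths used, 11012 bases for Rrm1 and 2771 for Rrm2. Without a correction for length, mean Rrm1 stood above mean Rrm2 in both groups. Controls had 32.2 against 6.40 CPM, and SDS libraries 51.8 against 15.8 CPM.

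**Figure D2:**
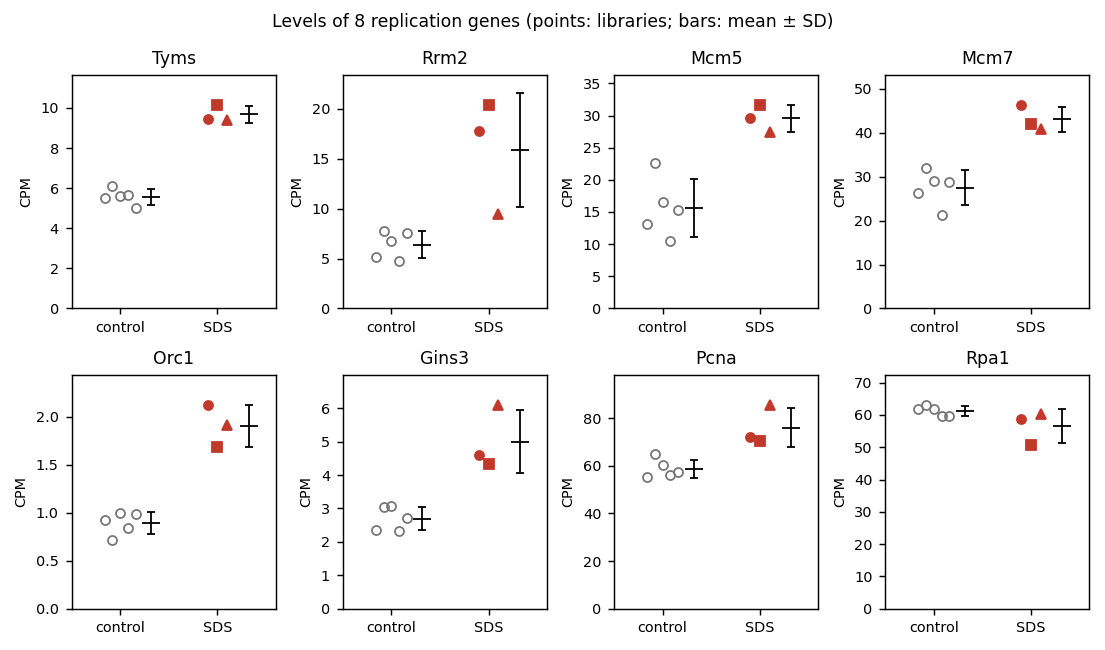
CPM of 8 replication genes in each library, with control libraries as open circles, SDS libraries 1, 2 and 3 as a red circle, square and triangle, and the mean ± SD of each group as a bar beside them. In Tyms the SDS libraries sit between 9.42 and 10.1 CPM, all above the controls, Rrm2 shows the widest spread within SDS, and Rpa1 overlaps between the groups.

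The genes that open S phase had positive log2 fold changes in 4 of 4, SDS values above every control in 3, and none passed. Ccne1, a cyclin E that drives the G1 to S step, measured 3.14, 4.86, 6.24, 3.24 and 4.53 CPM in controls and 9.81, 7.58 and 7.79 CPM in SDS libraries (log2 0.93 ± 0.25 SE, edgeR adjusted p = 0.10). E2f1, the transcription factor, measured 4.91, 6.93, 5.39, 5.37 and 6.71 CPM in controls and 7.73, 10.3 and 7.46 CPM in SDS libraries (log2 0.53 ± 0.18). Every SDS value of these genes lay above the highest control. Ccne2, the other cyclin E, measured 5.85, 4.00 and 8.04 CPM in SDS libraries against 4.33 to 5.28 CPM in controls, so that SDS library 2 lay below all controls and the other two above. Uhrf1, which carries DNA methylation over to the new strand, had a log2 fold change of 0.62 ± 0.30 and controls spread from 5.54 CPM to just under the lowest SDS library at 15.7 CPM.

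The E2F letters did not separate the genes by response. The 15 genes with a match had a median log2 fold change of 0.62 and the 20 with an entry and no match had 0.57, with ranges of -0.12 to 1.08 and -0.11 to 1.31. Orc1 and Gins3, shown above with a match near the start, had 1.08 and 0.89, and Tyms, shown without one, had 0.80. This is a description of the windows searched, with no test.

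Relative to Krt5, the keratin of the basal cells that divide, the sum of the 43 genes did not separate the groups. With the libraries scaled to Krt5, most of the 43 still lay above the median of all tested genes, as given below. Krt5 measured 1984, 3380, 3213, 1313 and 2911 CPM in controls and 3839, 3628 and 3935 CPM in SDS libraries, so each SDS library exceeded each control, although the gene did not pass (log2 0.57 ± 0.30 SE, edgeR adjusted p = 0.352). In the controls the sum of the 43 genes followed the same order as Krt5, lowest in control 4, then 1, 5, 3 and 2. Per 1000 counts of Krt5 the 43 genes had 249, 179, 171, 347 and 186 counts in controls 1 to 5 and 193, 207 and 183 in SDS libraries. All SDS values lay inside the control range, also without control 4, whose ratio was the highest.

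With the libraries scaled to Krt5, the median log2 fold change of the 43 genes was -0.08, with a range of -0.86 to 0.77 and SEs of 0.34 to 0.50. This scaling moved the median of all tested genes to -0.75, where the TMM scaling had left it at -0.005. Of the 43, 17 (39.5%) were positive and 26 negative, where 7.42% of all tested genes were positive. None passed in edgeR, beside 0.0466% of all genes called in either direction, and 1 of 43 had an unadjusted p under 0.05 (Rpa1, log2 -0.86 ± 0.36 SE), beside 29.4% of all genes. Mcm10 and Rrm2 had the highest values (0.77 ± 0.46 and 0.67 ± 0.42 SE) and Rpa1 and Mcm8 the lowest (Mcm8 -0.85 ± 0.48 SE). In simulated counts this scaling recovered 8% of 2-fold and 90% of 4-fold changes. It also made 32 false calls, and its power there at differences of the size seen here was low. These figures come from 1 simulated data set in which Krt5 had no group difference and varied independently of other genes. In the data the 43 genes followed Krt5 over the controls, so the figures need not hold for the real fit. Each reference gene moves all genes together. The median of the 43 was 0.50 beside -0.12 for all genes when scaled to the mean of 6 basal genes (Krt5, Krt15, Trp63, Col17a1, Itga6 and Itgb4). It was 0.30 beside -0.31 with Trp63, and -1.47 beside -2.11 with Krt14. Krt14, the partner of Krt5, rose itself (log2 2.55 ± 0.47 SE, edgeR adjusted p = 0.0491), from 325 to 822 CPM in controls to 5030, 4005 and 1093 CPM in SDS libraries, a call lost in 11 of 15 alternatives.

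**Figure D3:**
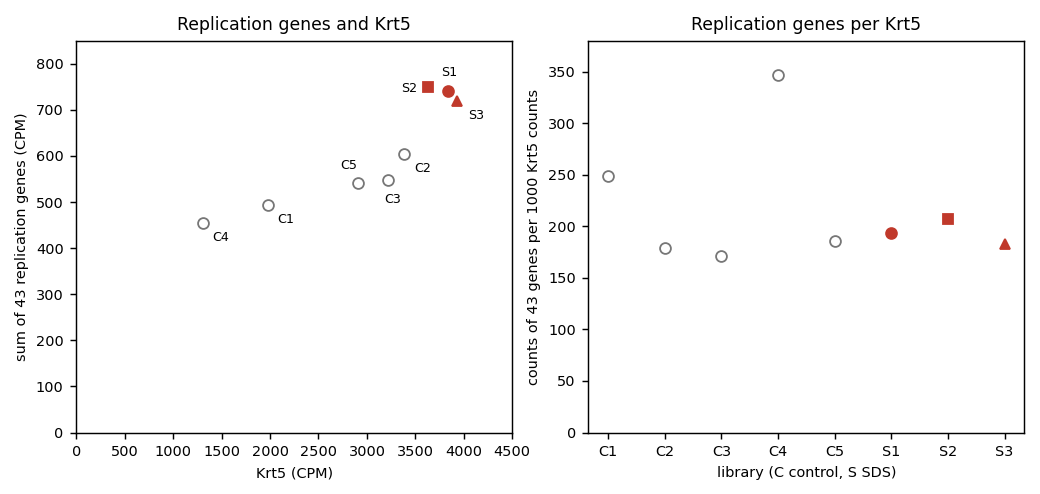
Left, the summed CPM of the 43 replication genes (y axis) against the CPM of Krt5 (x axis) in each library, with controls C1 to C5 as open circles and SDS libraries S1 to S3 in red. Right, counts of the 43 genes per 1000 Krt5 counts in each library. The SDS libraries lie highest on both axes at left, and at right, between 183 and 207, within the controls, which run from 171 to 347.

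**Figure D4:**
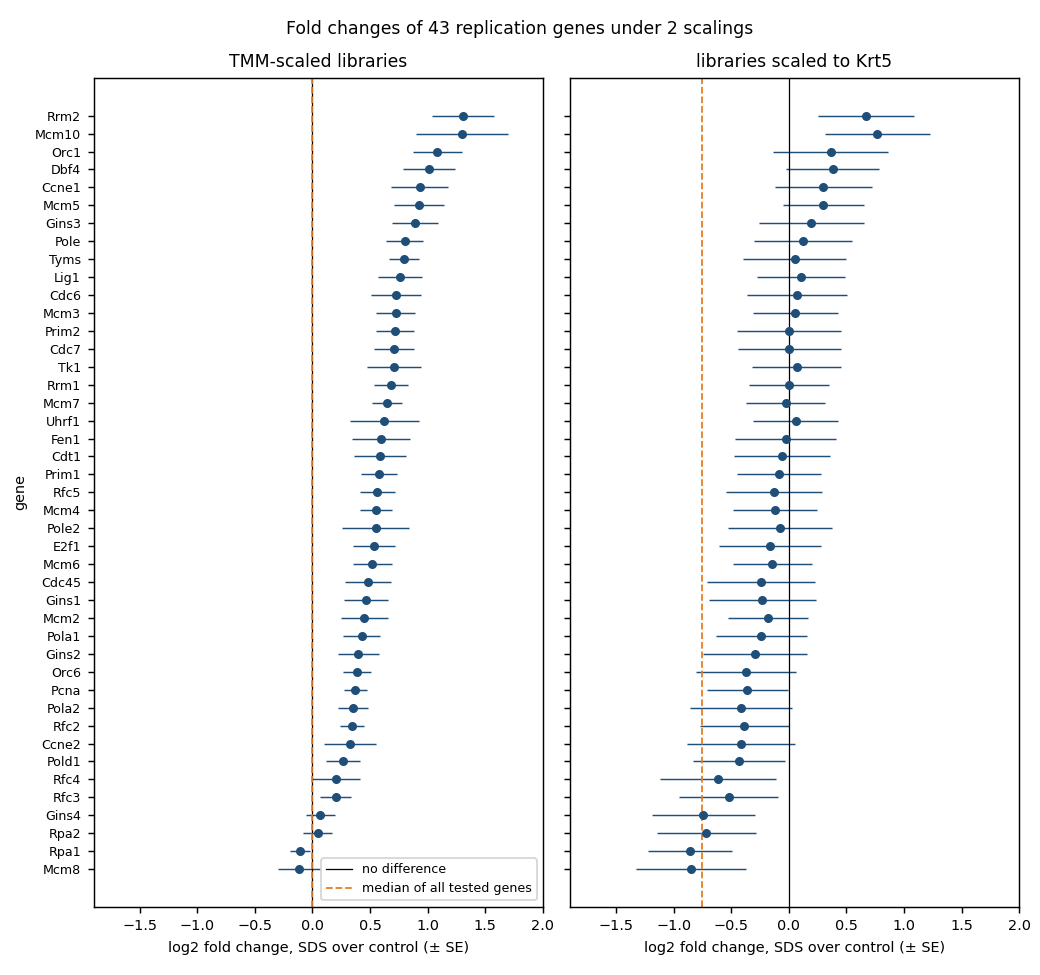
Log2 fold change of SDS over control with its SE for the 43 genes, in the same order in both panels, with TMM-scaled libraries at left and libraries scaled to Krt5 at right. The dashed line is the median of all tested genes, -0.005 at left and -0.75 at right, and the 43 genes lie mostly to the right of it in both.

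Other genes of DNA replication, listed for their function, had a smaller median, and whether the lists differ was not tested. Of 30 further fork and origin genes 1 rose, 0 fell and 29 did not pass, 25 were positive, and 17 had SDS values above every control, with a median of 0.31. The call was Pclaf, a PCNA-binding factor, at 16.8, 23.3 and 10.7 CPM in SDS libraries against 3.48 to 7.60 CPM in controls (log2 1.67 ± 0.30 SE, edgeR adjusted p = 0.0469). The call of Pclaf was lost in 9 of 15 alternatives. Dna2, the nuclease and helicase of Okazaki processing, and Ticrr, which brings Cdc45 to origins, had log2 fold changes of 1.11 ± 0.23 and 1.37 ± 0.29 without passing. Of 11 genes that rebuild chromatin behind the fork none passed (7 at an unadjusted p under 0.05, 5 by DESeq2), 11 were positive and the median was 0.40, with the remodeller Hells at 1.05 ± 0.28, the histone chaperone Nasp at 0.46 ± 0.11 and the histone acetyltransferase Hat1 at 0.40 ± 0.11. Of 14 further nucleotide genes none passed (4 at an unadjusted p under 0.05, 4 by DESeq2) and the median was 0.25. Umps, Dck and Dut, enzymes of pyrimidine synthesis, salvage and dUTP removal, had 0.39, 0.51 and 0.39.

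Regulators of the G1 to S step, a list of kinases and their inhibitors alike, had log2 fold changes from -0.60 to 1.25. Their median was near 0, and whether the list differs from the replication genes was not tested. Of 27 such genes none passed (9 at an unadjusted p under 0.05, 6 higher and 3 lower; 5 by DESeq2, 4 higher and 1 lower), 14 were positive and the median was 0.07. Cdk6 and Cdk2, kinases of G1 and S phase, had log2 fold changes of 0.57 ± 0.15 and 0.37 ± 0.11. Cdkn1c, an inhibitor of these kinases, measured 10.4, 10.1 and 9.92 CPM in SDS libraries against 14.3 ± 2.10 CPM (SD, n = 5) in controls, each SDS value below each control (log2 -0.50 ± 0.15, edgeR adjusted p = 0.123).

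Mitosis genes showed larger and less even values than replication genes. None of 20 passed in edgeR (20 at an unadjusted p under 0.05, 19 higher and 1 lower; 15 by DESeq2, 14 higher and 1 lower), and their median log2 fold change was 1.25. Their mean level exceeded that of the controls by 0.83, 1.84 and 0.28 (log2) in SDS libraries 1, 2 and 3, and control 2 stood at 0.37, so that SDS library 3 lay inside the control range. The 43 replication genes stood at 0.58, 0.60 and 0.53 in the same libraries. Whether the lists differ was not tested. Mki67, a protein of all cycling cells, measured 45.5, 94.3 and 41.5 CPM in SDS libraries against 16.1 to 29.1 CPM in controls (log2 1.31 ± 0.29 SE, edgeR adjusted p = 0.0676). Cdk1, the mitotic kinase, and Top2a, the topoisomerase that untangles sister DNA, had 1.39 ± 0.33 and 1.30 ± 0.31.

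**Figure D5:**
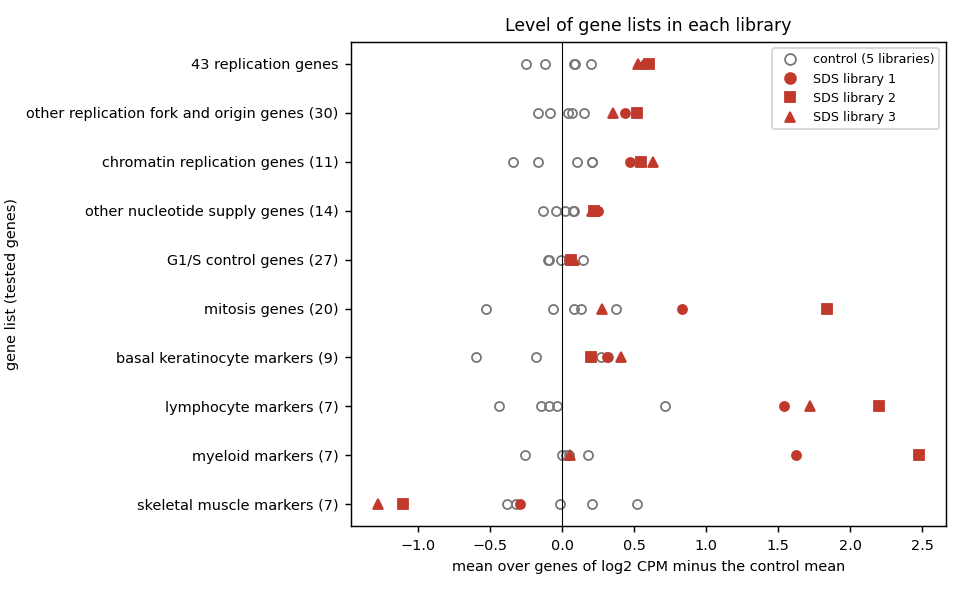
Mean over the tested genes of each list (number in brackets) of log2 CPM minus the control mean, for each library, with controls as open circles and SDS libraries in red. The 43 replication genes are tightly grouped in the 3 SDS libraries (0.53 to 0.60), whereas mitosis genes spread from 0.28 to 1.84 and myeloid markers from 0.05 to 2.47.

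Markers of some other cells differed between the groups as well, and their part in the results was not tested. Immune cells can divide too. The 9 lymphocyte markers summed to 9.86 to 20.0 CPM in controls and to 46.8, 89.3 and 20.9 CPM in SDS libraries 1, 2 and 3, with Cd3d higher (log2 4.04 ± 0.75 SE, edgeR adjusted p = 0.0491, a call lost in 9 of 14 alternatives), and Cd3d, Cd3e and Ms4a1 were at 0 in at least 1 library. The 7 myeloid markers summed to 218 to 325 CPM in controls and to 582, 1155 and 333 CPM in SDS libraries. Csf3r, a receptor of neutrophils, measured 22.8, 45.3 and 0.542 CPM in SDS libraries against 0.337 to 0.810 CPM in controls. SDS library 3 was thus inside the control range for Csf3r, while the mean log2 level of 7 lymphocyte markers in it exceeded the control mean by 1.72, against 0.71 in the highest control. The 7 skeletal muscle markers summed to 21659 to 30296 CPM in controls and to 18857, 15059 and 10225 CPM in SDS libraries, lower in each SDS library than in each control, and none passed (5 at an unadjusted p under 0.05, 4 by DESeq2). No fibroblast, endothelium, smooth muscle, adipocyte or suprabasal keratinocyte marker passed, and none had all SDS values above or all below the controls. Fibroblast markers summed to 2312, 6024 and 875 CPM in SDS libraries 1, 2 and 3 against 1877 to 2469 CPM in controls. The 9 basal keratinocyte markers summed to 3434 to 7312 CPM in controls and to 8203 to 10651 CPM in SDS libraries. Only 5 of the 9 had a positive log2 fold change (median 0.19), and their mean log2 level overlapped between the groups, with SDS libraries at 0.31, 0.20 and 0.41 and the highest control at 0.31.

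Library totals ran from 22033866 to 29802362 counts, and the 43 genes took between 0.0492% and 0.0571% of the counts in controls and between 0.0681% and 0.0802% in SDS libraries. At these depths 3 counts equal 0.101 to 0.136 CPM, which covers counting error only. In 13 of the 43 genes some exons overlap exons of a counted gene on the other strand, among them Gins2, Fen1, Rfc2 and Ccne2, and the strand setting of the counting is not given in the sources used here, so their counts are uncertain in part. The genes lie on 14 chromosomes, with 8 on chromosome 5 and 6 on chromosome 8.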

How the data were processed

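RNA sequencing of poly(A)-selected RNA from mouse esophagus was analysed in 8 libraries, 5 controls and 3 given SDS. The values are whole-number read counts per gene as deposited by the authors, 1 table per library, with 22033866 to 29802362 counts each. The submitters' processing notes name the mm10 genome and the tools STAR 2.6.1c, Subread, FastQC and bcl2fastq. No source used here gives the annotation release, strand setting or treatment of multiply mapped reads.

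Gene identifiers were matched to mouse symbols. Positions and exon lengths were those given with the deposited counts, and gene types came from GENCODE M21. Genes passing filterByExpr (minimum count 10, minimum total 15) were fitted with edgeR 4.0.16 (R 4.3.3), using TMM scaling and the robust quasi-likelihood test, with Benjamini-Hochberg adjustment over all 17179 genes and a threshold of 0.05. A second fit set scaling factors so that Krt5 was equal in all libraries (17178 genes, without Krt5). SEs were obtained from the log2 fold change and the F statistic (absolute value over the root of F). List levels use log2 CPM with a prior count of 2. The procedure was tested on simulated data with 200 changed genes; it recovered 52% of 2-fold and 87% of 4-fold changes in the first fit. Within groups no pair of libraries agreed within sampling noise (lowest chi-square per degree of freedom 23.1). Alternatives were other scalings, filters, DESeq2 1.42.0, limma-voom (limma 3.58.1), a replicate block, each library left out, and other reference genes in place of Krt5.

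The genes and lists were chosen with earlier results of these data known. Genes given in full were those past the threshold, the 2 with the smallest unadjusted p in each role, and those with a negative log2 fold change; of every other list, up to 3 with the smallest unadjusted p and any called, and Mki67. Promoters follow RefSeq on GRCm38.p6.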

Additional observations from a re-analysis of the deposited data

Results flagged for a closer look

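Cdc45, which travels with the MCM helicase at the fork, was unusually low in control library 1, at 3.31 CPM, while the nearest other control had 4.57 CPM. The gap took 0.841 of the range of the 5 controls, above Dixon's critical value of 0.71. Chance alone gives such a gap in about 1 of 20 groups of 5. Of the 44 groups examined 1 was flagged, which is no more than chance would give.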

How the results depend on the processing

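The median log2 fold change of the 43 genes stayed between 0.50 and 0.63 in 15 alternatives, and none of the 43 was called lower in any of them. The number called higher, 1 in the main analysis, was 3 without a filter on low counts (Rrm2, Mcm7 and Tyms), 22 with DESeq2, and 0 to 11 with 1 library left out. It was 0 with a replicate block (25 at an unadjusted p under 0.05). Apart from DESeq2 and the fit without SDS library 3, the share of all tested genes called is not given for these alternatives. Their counts therefore cannot be set against it. Same-numbered libraries deviated together with correlations of 0.31, -0.01 and 0.31. Among controls 1 to 3 alone, 2 of 3 SDS libraries correlated best with the control of their own number. These values do not settle whether the numbers mark pairs, and the main fit did not use them as pairs. The count of genes with all SDS values above the controls, 29, was 29 to 34 in 10 alternatives chosen after seeing the data. Most of these left out 1 library, which makes such a separation easier for any gene. The share over all tested genes is not given for these alternatives. Relative to another reference gene, the median was 0.50 (mean of 6 basal genes), 0.30 (Trp63) and -1.47 (Krt14) in place of -0.08, while the median of all genes moved along with it, to -0.12, -0.31 and -2.11 in place of -0.75. With Krt14, 22 of the 43 were called lower, in a fit that called 15430 of 17178 genes, and Mcm10 and Rrm2 turned to -0.87 and -1.03. With 1 library left out the Krt5-scaled median was -0.15 to 0.07 (0.07 without control 4, beside -0.45 for all genes). The control level of Gins4 over the mean of the other 3 GINS genes was 5.56 times without a length correction and 10 times with it. With 2 of the octamers the share of genes with an E2F match was 34.3%. The cause of the other differences was not tested. Orc1 and Mcm10, with fewer than 2 CPM in controls, are the genes most limited by depth.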

Other observations

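Subunits of 1 complex differed in their RNA levels in the controls. The 4 genes of DNA polymerase alpha and primase spanned 5.07-fold per kilobase, from Prim2 at 0.807 to Prim1 at 4.09 CPM per kb. The 4 clamp loader genes Rfc2 to Rfc5 spanned 2.10-fold. Per kilobase, Pcna, Gins4 and Rpa1 stood highest of the 43 genes, Pcna at 24.5 and Gins4 at 13.3 CPM per kb, and Orc1 and Mcm10 lowest, at 0.257 and 0.218 CPM per kb. Of these 3 most abundant genes, Gins4 and Rpa1 had log2 fold changes of 0.07 and -0.11.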
